A study of Mus musculus with 18 samples.

Results

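The genes described here encode the alpha chains of the collagens, taken as every gene on the array whose symbol is Col followed by a type number, the letter a and a chain number. They numbered 36 of the 12393 genes tested. A probe set is a group of short probes against a single transcript, and 58 probe sets carried such a symbol alone. Where a gene had several, the probe set with the highest mean log2 intensity over all 18 arrays stood for it. By class, 9 genes encode chains of fibrillar collagens, 8 of network-forming collagens, 9 of FACIT collagens (which sit on the surface of fibrils) and 10 of other collagens, among them the beaded filament collagen VI. The chain genes Col6a4, Col6a5, Col6a6, Col8a2, Col21a1, Col23a1, Col24a1, Col27a1 and Col28a1 were not analysed here.

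RNA came from mouse kidneys of 3 genotypes, all on C57BL/6: wild type (WT), TIMP2-/- and TIMP3-/-. In unilateral ureteral obstruction (UUO) the right ureter was tied at 2 points near the kidney. Sham mice of the same genotype had the operation without the ties. After 3 days the kidney on the side of the operation was snap frozen, and its total RNA was hybridised to an Affymetrix mouse array. Each of the 6 groups held 3 biological replicates, which are named here by group and number, as in WT UUO 2. The ages of the mice and the way the genes were inactivated are not given in the sources used here.

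Collagen chains are wound around each other in the endoplasmic reticulum, secreted, trimmed and crosslinked into fibrils, networks or filaments. In the kidney, networks of collagen IV form the basement membranes of tubules and glomeruli, and fibrillar collagens I and III lie in the interstitium, where they accumulate in fibrosis. TIMP2 and TIMP3 are inhibitors of metalloproteinases, the enzymes that cut collagens and other matrix proteins.

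Array medians lay between intensities of 201.8 and 247.9, and the 25th percentiles between 56.9 and 64.2. Values below that percentile are close to background, so the sizes of differences that involve them are inexact. Timp3 lay between 35.14 and 60.81 on the 6 TIMP3-/- arrays and between 4260 and 9040 on the 6 WT arrays. Timp2 lay between 742.2 and 897.1 in TIMP2-/- UUO against 3521 to 4689 in WT UUO, but its sham difference of -0.86 on the log2 scale did not pass (limma, adjusted p = 0.131), so the TIMP2-/- sham labels are only weakly checked. The kidney marker Lrp2, an uptake receptor of the proximal tubule, was at 6660 or above on every sham array. WT UUO 2 had an albumin (Alb) intensity of 28110 against 53.96 to 933.2 on the other 17 arrays. On the principal component that ranked next after the leading one, WT sham 3 (60.0) and TIMP3-/- UUO 2 (40.7) stood above the other arrays (-33.3 to 22.3). Results that rest on these 3 arrays are given with and without them.

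UUO against sham asks what 3 days of obstruction do to each chain gene. In WT kidneys 18 of the 36 collagen genes rose and 3 fell, where 33.0% of all genes passed, 16.8% as rises and 16.2% as falls (limma, Benjamini-Hochberg adjusted p under 0.05, which is what passing means throughout). The median log2 difference was 1.46 over the collagen genes and -0.09 over all genes. In TIMP2-/- kidneys 17 rose and 8 fell, where 37.9% of all genes passed, 15.9% as rises and 22.0% as falls. In TIMP3-/- kidneys 21 rose and 9 fell, where 64.6% of all genes passed, 25.7% as rises and 38.8% as falls. Rises among the collagen genes were thus more frequent than over all genes in each genotype. Falls were less frequent in WT and TIMP3-/- and at the share of all genes in TIMP2-/-. With each array centred on its median, 18 rose and 4 fell in WT, 16 and 9 in TIMP2-/-, and 20 and 12 in TIMP3-/-, where over all genes 1678 rose and 2916 fell in WT, 1532 and 3990 in TIMP2-/-, and 2436 and 6256 in TIMP3-/-. The same 17 collagen genes rose in each of the 3 genotypes, where 10.4% of all genes did so. They were Col1a1, Col1a2, Col3a1, Col5a1, Col5a2, Col5a3, Col4a1, Col4a2, Col8a1, Col14a1, Col16a1, Col6a1, Col6a2, Col6a3, Col15a1, Col17a1 and Col18a1. Col4a4 and Col9a1 fell in all 3 genotypes, where 11.0% of all genes fell. With WT UUO 2, WT sham 3 and TIMP3-/- UUO 2 left out, 16 collagen genes rose and 1 fell in WT, 17 rose and 6 fell in TIMP2-/-, and 20 rose and 7 fell in TIMP3-/-. Of all genes, 11.5%, 18.7% and 24% then rose and 8.21%, 26.5% and 32.3% fell. Because kidney tissue of many cell types was measured, a change in the number of cells of a type and a change in RNA per cell cannot be told apart.

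**Figure D1:**
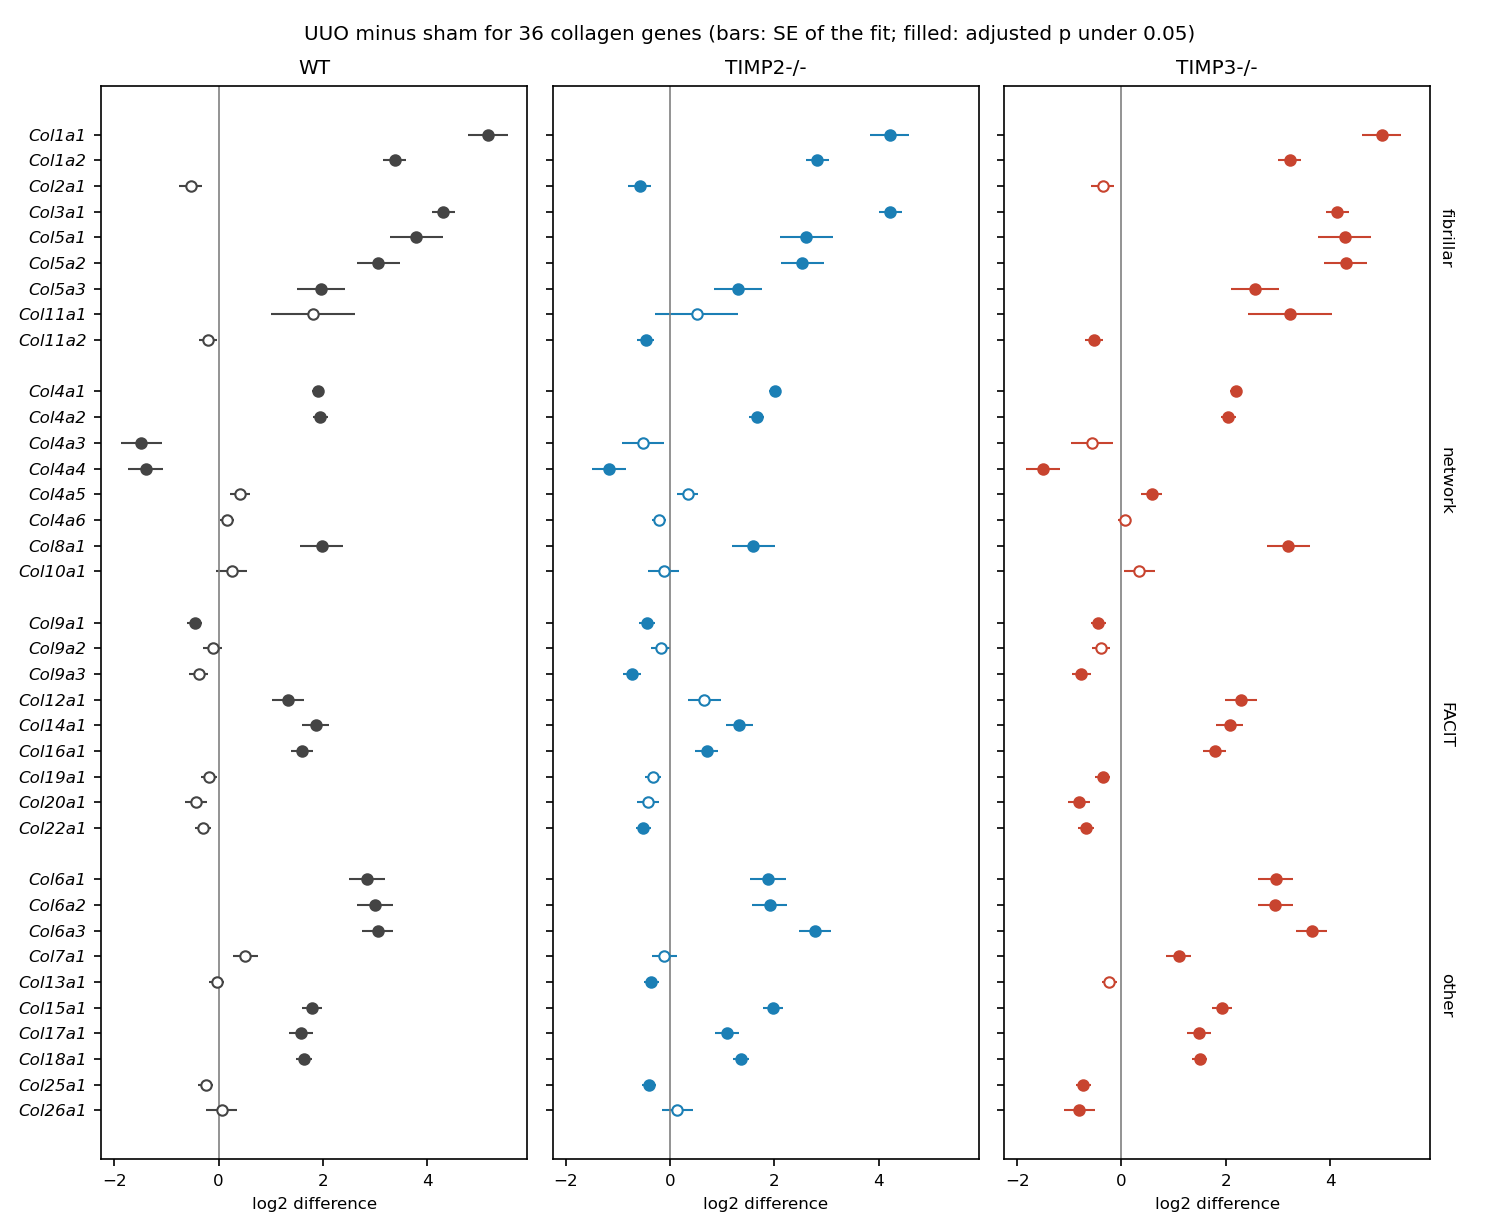
UUO minus sham difference of each of the 36 collagen genes (x axis, log2) in WT, TIMP2-/- and TIMP3-/- kidneys, grouped by class. Points are fitted differences, bars the standard error, and filled points passed at an adjusted p under 0.05; 17 genes are filled to the right of 0 in every panel, with Col1a1 at 5.17, 4.21 and 4.99.

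Promoter windows (RefSeq, build GRCm38.p6, the 250 bases before the annotated start) were found for 27 of the 36 genes. Of the 17 genes that rose in every genotype, 14 had a window, and the 4 of these with the highest mean UUO difference are shown, as upstream sequences of strongly raised chain genes. Col1a1 and Col5a2 had no window. Capitals mark matches on either strand to CCAAT (reverse ATTGG, the core bound by NF-Y), TATAAA (reverse TTTATA, the TATA box), GGGCGG (reverse CCGCCC, the GC box bound by Sp1 proteins) and CAGACA (reverse TGTCTG, which holds a Smad-binding core). No match overlapped another in the windows shown.
Col3a1 (chr1:45311288-45311537, plus strand): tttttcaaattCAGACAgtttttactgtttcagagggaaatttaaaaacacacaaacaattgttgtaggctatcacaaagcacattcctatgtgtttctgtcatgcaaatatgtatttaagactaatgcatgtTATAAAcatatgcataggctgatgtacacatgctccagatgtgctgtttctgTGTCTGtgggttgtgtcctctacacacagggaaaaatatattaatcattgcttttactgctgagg
Col5a1 (chr2:27886175-27886424, plus strand): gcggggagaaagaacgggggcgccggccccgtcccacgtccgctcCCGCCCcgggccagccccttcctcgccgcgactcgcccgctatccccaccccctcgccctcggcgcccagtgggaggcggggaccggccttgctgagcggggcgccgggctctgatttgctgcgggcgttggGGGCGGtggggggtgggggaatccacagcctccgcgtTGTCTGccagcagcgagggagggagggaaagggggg
Col6a3 (chr1:90843972-90844221, minus strand): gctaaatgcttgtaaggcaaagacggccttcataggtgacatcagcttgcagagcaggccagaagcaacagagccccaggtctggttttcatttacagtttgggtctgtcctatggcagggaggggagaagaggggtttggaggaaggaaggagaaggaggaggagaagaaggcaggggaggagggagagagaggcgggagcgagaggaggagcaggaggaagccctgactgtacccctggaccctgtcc
Col1a2 (chr6:4505368-4505617, plus strand): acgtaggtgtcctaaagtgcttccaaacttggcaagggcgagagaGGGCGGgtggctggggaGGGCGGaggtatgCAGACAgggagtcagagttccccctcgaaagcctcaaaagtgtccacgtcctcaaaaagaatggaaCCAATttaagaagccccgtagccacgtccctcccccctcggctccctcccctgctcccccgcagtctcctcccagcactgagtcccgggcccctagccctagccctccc

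The Col1a2 window held 4 matches: GGGCGG with its first base at -205 and -188 from the start, CAGACA at -175 and CCAAT at -109. The Col3a1 window held CAGACA at -239, TATAAA at -117 and TGTCTG at -65. The Col5a1 window held CCGCCC at -205, GGGCGG at -73 and TGTCTG at -36, and the Col6a3 window held no match to these letters. Of the 14 genes with a window that rose in every genotype, 7 held CCAAT, 2 TATAAA, 8 GGGCGG and 5 CAGACA on either strand in at least 1 window. Of the other 13 collagen genes with a window, 5, 3, 7 and 3 held them. Of all 32851 windows, counted by window and not by gene, 33.8%, 12.4%, 32.7% and 17.1% did. The 27 collagen genes had 30 windows, so the 2 measures are not quite alike. All are counts of letters, not of bound sites.

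Of the 4 classes, the fibrillar collagens had the highest median difference in every genotype. Of the 9 genes, 6 rose and none fell in WT (median log2 difference 3.06), 6 rose and 2 fell in TIMP2-/- (2.54), and 7 rose and 1 fell in TIMP3-/- (3.23). Among all genes 16.8%, 15.9% and 25.7% rose and 16.2%, 22.0% and 38.8% fell in WT, TIMP2-/- and TIMP3-/-. Col1a1 encodes the chain that makes up most of collagen I, the main fibre of scar tissue. Its intensities were 215.6, 218 and 164 in WT sham and 6035, 12620 and 4747 in WT UUO. In TIMP2-/- they were 203.9, 227.1 and 240.8 after sham and 3130, 4141 and 5446 after UUO. In TIMP3-/- they were 313, 376.6 and 351.6 after sham and 19840, 11510 and 5862 after UUO. Every UUO array thus lay far above every sham array, and the UUO groups spread widely, with TIMP3-/- UUO 1 and WT UUO 2 high. The difference in WT was 5.17 ± 0.38 on the log2 scale (SE of the fit, adjusted p = 1.81e-07), or 36-fold with a 95% interval of 20.7 to 63.1. It was 4.21 in TIMP2-/- and 4.99 in TIMP3-/-, and 4.63 in WT without the 3 arrays that stood apart.

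Col3a1 encodes the chain of collagen III, which forms fine fibres beside collagen I. It read 1027, 1254 and 1218 in WT sham against 22020, 33190 and 16640 in WT UUO. In TIMP2-/- it went from 942, 914 and 870.3 to 15560, 17470 and 18000. In TIMP3-/- it went from 2020, 1761 and 1504 to 36780, 35360 and 22540. The operations did not overlap in any genotype, and the differences were close to each other at 4.31, 4.22 and 4.14 in WT, TIMP2-/- and TIMP3-/- (SE 0.22 each). Its adjusted p was the smallest among the collagen genes in all 3 genotypes (9.82e-09, 1.35e-08 and 2.61e-08).

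Col1a2, the partner chain of Col1a1, had 2427, 3084 and 2277 in WT sham and 24990, 36300 and 21410 in WT UUO. Its TIMP2-/- values were 2337, 3335 and 3272 after sham and 18620, 20650 and 23480 after UUO. Its TIMP3-/- values were 3595, 3847 and 3229 after sham and 41980, 35490 and 24750 after UUO. All 9 UUO arrays stood above all 9 sham arrays, with differences of 3.38, 2.82 and 3.23 (SE 0.22 each).

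Collagen V is a minor partner in collagen I fibrils that sets where they start, and all 3 of its chain genes rose in every genotype. Col5a1 read 196.8, 216.2 and 144.7 in WT sham and 1751, 6440 and 1456 in WT UUO. It read 197.7, 229.7 and 305.1 then 1165, 1425 and 1882 in TIMP2-/-, and 239.8, 314.1 and 242.7 then 10300, 5845 and 2247 in TIMP3-/-. Sham arrays were alike across genotypes, while 3 of the UUO arrays (WT UUO 2, TIMP3-/- UUO 1 and TIMP3-/- UUO 2) lay at 5845 or above. The differences were 3.79, 2.61 and 4.28 (SE 0.51).

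Col5a2 had 744, 565.9 and 694.5 in WT sham and 4872, 11410 and 3042 in WT UUO. It had 629.4, 537.5 and 551.5 then 2890, 3430 and 3696 in TIMP2-/-, and 424, 403.5 and 495.6 then 14050, 11070 and 4202 in TIMP3-/-. The TIMP3-/- sham arrays were the lowest and TIMP3-/- UUO 1 the highest, which gave 4.30 ± 0.41 there against 3.06 in WT and 2.54 in TIMP2-/-. Col5a3 rose by 1.97, 1.31 and 2.57. Its rise in TIMP2-/- (adjusted p = 0.0378) no longer passed when any 1 of the 6 TIMP2-/- arrays was left out, and another, dimmer Col5a3 probe set passed there in the opposite direction (-0.33, adjusted p = 0.0376). Its WT rise did not pass without the 3 arrays that stood apart (1.52, adjusted p = 0.0599).

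The remaining fibrillar genes encode chains best known from cartilage. Col11a1 read 18.03 to 32.97 on the sham arrays, below the 25th percentile. After UUO it read 336.6 on WT UUO 2, 527.3 on TIMP3-/- UUO 1 and 438.9 on TIMP3-/- UUO 2, but only 25.02 to 59.16 on the other 6 arrays. It passed in TIMP3-/- (3.23 ± 0.80, adjusted p = 0.00311) and not in WT (1.81, adjusted p = 0.0961) or TIMP2-/- (0.51, adjusted p = 0.629). Col2a1 and Col11a2 were dim, with no array above 120.3 and 70.24. Col2a1 read 81.9, 108.5 and 101.1 in TIMP2-/- sham and 63.17, 49.59 and 85.71 in TIMP2-/- UUO. These ranges overlapped, and the fall of 0.58 on the log2 scale there only just passed (adjusted p = 0.0494). Col11a2 fell in TIMP2-/- and TIMP3-/- by 0.47 and 0.53 on the log2 scale, and neither call held under every alternative.

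**Figure D2:**
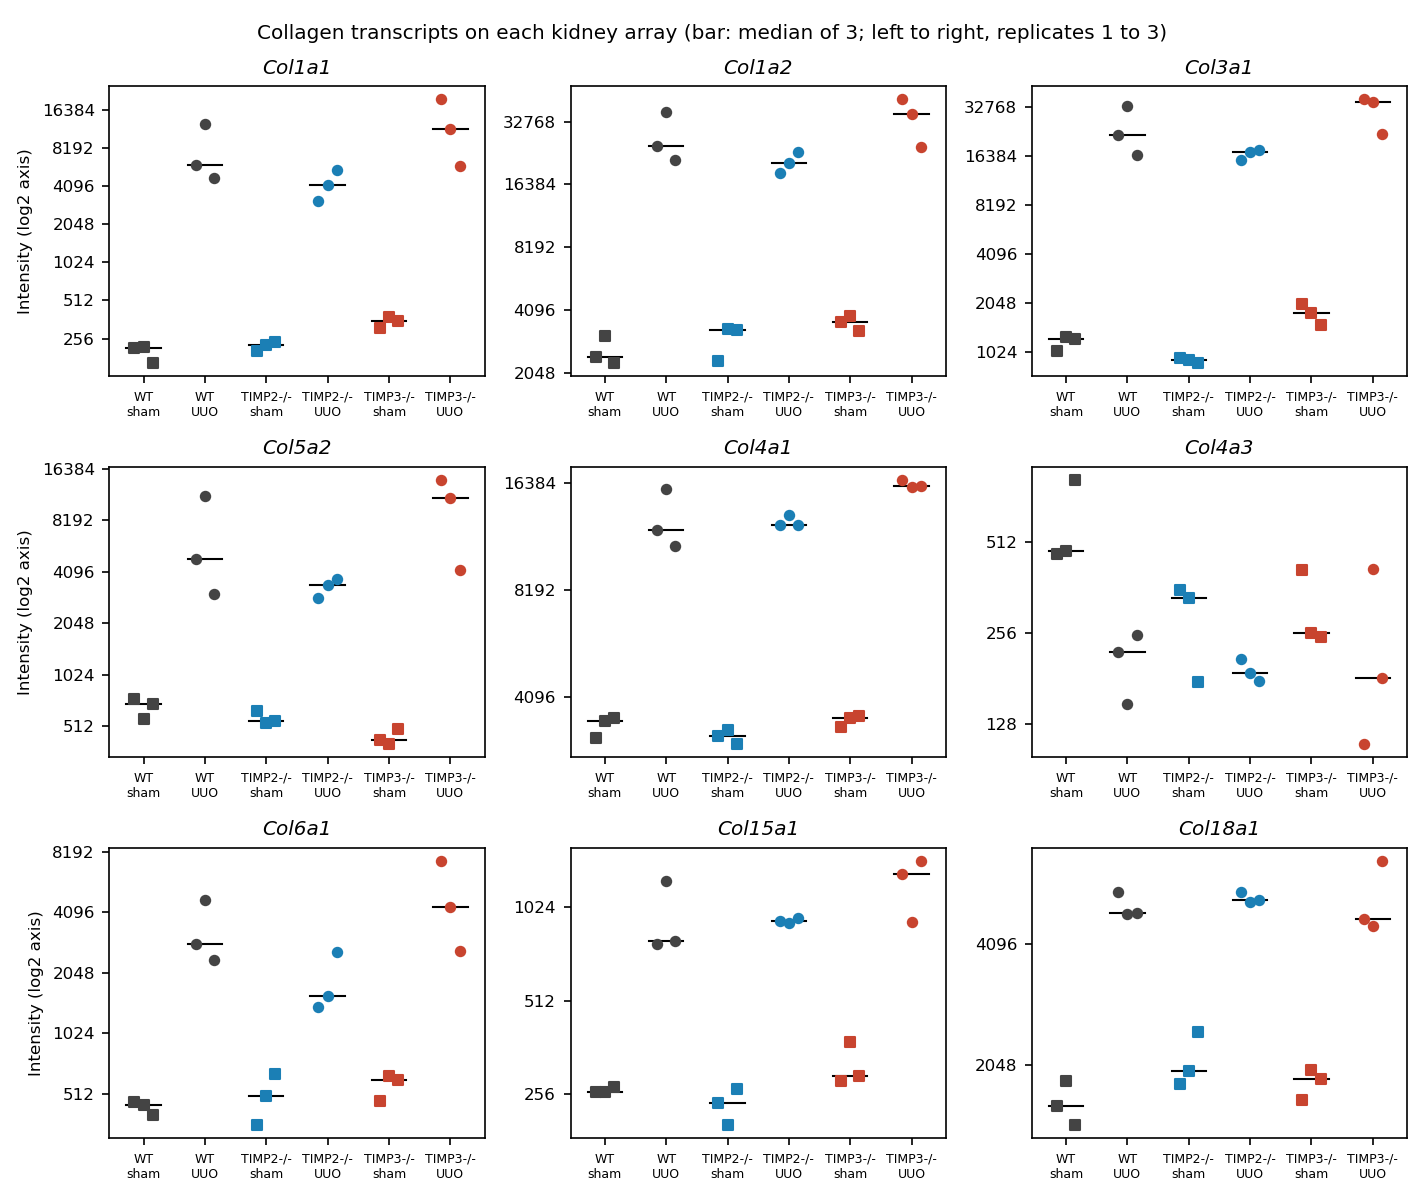
Intensity on each of the 18 arrays (y axis, log2 scale, linear units) for 9 collagen genes, by genotype and operation; squares are sham, circles UUO, and the bar is the median of 3 arrays. Col1a1, Col1a2, Col3a1, Col5a2, Col4a1, Col6a1, Col15a1 and Col18a1 are higher on every UUO array than on any sham array, and Col4a3 is not.

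Network-forming collagens split: Col4a1, Col4a2 and Col8a1 rose in every genotype, while Col4a4 fell in every genotype and Col4a3 in WT. Of the 8 network genes, 3 rose and 2 fell in WT (median 0.33), 3 rose and 1 fell in TIMP2-/- (0.11), and 4 rose and 1 fell in TIMP3-/- (0.46). Over all genes 16.8%, 15.9% and 25.7% rose and 16.2%, 22.0% and 38.8% fell. The network counts were not tested against these shares. Col4a1 and Col4a2 encode the partner chains found in nearly all basement membranes, from genes on opposite strands whose annotated starts lie 21 bases apart in GRCm38.p6.

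Col4a1 read 3139, 3518 and 3569 in WT sham and 12050, 15770 and 10890 in WT UUO. It read 3183, 3301 and 3021 then 12490, 13300 and 12500 in TIMP2-/-, and 3384, 3574 and 3630 then 16660, 15900 and 16000 in TIMP3-/-. Replicates were close and the operations far apart in each genotype, with differences of 1.91, 2.01 and 2.20 (SE 0.12). In WT this was a 3.76-fold rise with a 95% interval of 3.12 to 4.50. Col4a2 moved alongside, by 1.95, 1.66 and 2.05 (SE 0.14), from 1898 to 2548 on the sham arrays to 6809 to 10410 on the UUO arrays.

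Col4a3 and Col4a4, together with Col4a5, encode the chains of the mature glomerular basement membrane, where their loss causes Alport syndrome. Col4a4 read 834.4, 953.5 and 680.8 in WT sham and 340.9, 168.5 and 516.6 in WT UUO. It read 943.2, 722 and 789.8 then 341.6, 386.4 and 354.1 in TIMP2-/-, and 638.2, 752.1 and 701.1 then 146.9, 309.8 and 324.6 in TIMP3-/-. Every UUO array was below every sham array, opposite to Col4a1. The differences were -1.40 in WT (adjusted p = 0.00478), -1.17 in TIMP2-/- (adjusted p = 0.0138) and -1.50 in TIMP3-/- (adjusted p = 0.00139), with an SE of 0.33. The WT fall did not pass with a replicate block fitted to the 6 WT arrays by themselves (adjusted p = 0.0971), and it passed in the other alternatives.

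Col4a3 was less uniform. It read 467.9, 477.5 and 816.8 in WT sham and 221.2, 149.2 and 252.8 in WT UUO, without overlap. In TIMP2-/- it read 353.9, 334.6 and 176.4 then 210, 188.8 and 178.4, and in TIMP3-/- 414.2, 255.8 and 249.3 then 110.2, 415.1 and 181.9. In both knockouts the operations overlapped, through TIMP2-/- sham 3 and TIMP3-/- UUO 2. The WT difference was -1.48 ± 0.40 (adjusted p = 0.0108), but it did not pass without the 3 arrays that stood apart (adjusted p = 0.0533). It also failed to pass without WT sham 3 alone (-1.22, adjusted p = 0.0546) or WT UUO 2 alone (-1.26, adjusted p = 0.0541). The TIMP3-/- value was -0.56 (adjusted p = 0.232) with all arrays and -1.07 (adjusted p = 0.0105) without the 3.

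The glomerular chains are made by podocytes. Of 6 podocyte markers measured, 2 rose and none fell in WT, 1 rose and 1 fell in TIMP2-/-, and 2 rose and 1 fell in TIMP3-/-. Their summed intensity lay between 3284 and 5317 on the sham arrays and between 4138 and 5920 on the UUO arrays. The rises were those of Synpo, an actin-binding podocyte protein (1.49, 0.65 and 1.45 in WT, TIMP2-/- and TIMP3-/-), and of Ptpro, a podocyte membrane phosphatase (0.48 in WT and 0.67 in TIMP3-/-). Nphs1, the slit diaphragm protein nephrin, had differences of -0.52 in WT (adjusted p = 0.0723), -0.83 in TIMP2-/- (adjusted p = 0.00771) and -1.15 in TIMP3-/- (adjusted p = 0.00034), beside the falls of Col4a4. The part of podocytes in the fall of Col4a4 was not tested.

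Of the other network genes, Col8a1 rose in every genotype, Col4a5 in TIMP3-/-, and Col4a6 and Col10a1 in none. Col4a5 rose in TIMP3-/- (0.58 ± 0.20, adjusted p = 0.0177) and had 0.41 and 0.34 in WT and TIMP2-/-, and the TIMP3-/- rise did not pass without the 3 arrays that stood apart (0.47, adjusted p = 0.0673). Col4a6, which lies beside Col4a5 on the opposite strand, had 0.16, -0.21 and 0.06, none of which passed. Col8a1 encodes a short-chain collagen of vessel walls. It read 136, 202.8 and 283.1 then 677.8, 1484 and 480.3 in WT. It read 204.5, 195.9 and 170.8 then 668.7, 758.6 and 376.8 in TIMP2-/-, and 166.8, 209.2 and 177.5 then 2119, 2408 and 940.6 in TIMP3-/-. No UUO array of Col8a1 fell into the sham range, and the differences were 1.98, 1.60 and 3.20 (SE 0.41). Col10a1, the collagen of hypertrophic cartilage, stayed between 27.93 and 70.11 and did not pass in any genotype.

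FACIT collagens moved both ways. In WT 3 of 9 rose and 1 fell (median -0.19), in TIMP2-/- 2 rose and 3 fell (-0.33), and in TIMP3-/- 3 rose and 5 fell (-0.39). The shares of all genes were 16.8%, 15.9% and 25.7% for rises and 16.2%, 22.0% and 38.8% for falls. Whether the FACIT counts differ from these was not tested. The FACIT genes that rose were Col12a1, Col14a1 and Col16a1, whose products coat collagen I and other fibrils in soft connective tissue. Col12a1 read 166.7, 185.6 and 164.5 in WT sham and 385.5, 730.2 and 288.8 in WT UUO. It read 156.1, 212.5 and 204.6 then 251.3, 319.9 and 332.7 in TIMP2-/-, and 162.3, 175.3 and 198.1 then 1429, 763.4 and 604.3 in TIMP3-/-. The operations did not overlap in any genotype, yet the UUO values of TIMP2-/- stayed near the sham range. The difference passed in WT (1.33 ± 0.31) and TIMP3-/- (2.29) and not in TIMP2-/- (0.66, adjusted p = 0.1), and in WT it did not pass without the 3 arrays that stood apart (0.92, adjusted p = 0.0586). Col14a1 rose by 1.86, 1.33 and 2.08, and Col16a1 by 1.60, 0.70 and 1.79. The TIMP2-/- rise of Col16a1 (adjusted p = 0.0234) did not pass with the arrays quantile normalized again (0.55, adjusted p = 0.0782) or centred on their medians (0.56, adjusted p = 0.0505). It also failed to pass without any 1 of TIMP2-/- sham 2, TIMP2-/- sham 3, TIMP2-/- UUO 2 and TIMP2-/- UUO 3 (adjusted p of 0.0553 to 0.0668).

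The FACIT genes that fell had mean log2 intensities from 5.14 (Col19a1) to 7.15 (Col9a3), and their falls were small. Collagen IX is a cartilage collagen, and Col9a1 read 100, 89 and 100.8 in WT sham against 63.53, 70.46 and 76.22 in WT UUO. It read 96.1, 101.4 and 104.3 then 60.54, 71.79 and 93.94 in TIMP2-/-, and 75.34, 88.54 and 104.1 then 64.28, 61.28 and 70.08 in TIMP3-/-. The groups did not overlap, but TIMP2-/- UUO 3 came within a few units of the sham range. The differences were -0.46, -0.44 and -0.44 (SE 0.15), with adjusted p of 0.0303, 0.0363 and 0.0205, and the WT call was lost without any 1 of replicates 1 and 3 of the sham group or replicates 1 and 2 of the UUO group. The TIMP2-/- call was lost without any 1 of TIMP2-/- sham 1, 2 and 3 and TIMP2-/- UUO 1 and 2 (adjusted p of 0.0569 to 0.188). The TIMP3-/- call was lost without TIMP3-/- sham 3 (adjusted p = 0.106), without TIMP3-/- UUO 2 (0.065) or without the 3 arrays that stood apart (0.0764), and the WT call was also lost without those 3 (0.146). Col9a3 fell in TIMP2-/- from 186.4, 200 and 220.1 to 105, 99.39 and 171.1, by 0.73 on the log2 scale (adjusted p = 0.00706). In TIMP3-/- it fell from 164.6, 155.2 and 192.7 to 113, 89.76 and 98.54, by 0.77 on the log2 scale. In WT its values of 166.1, 159.7 and 159.9 after sham and 138.4, 103.1 and 134.2 after UUO gave -0.38 (adjusted p = 0.12).

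Col20a1 read 130.4, 150.6 and 166.8 in TIMP3-/- sham and 75.71, 66.42 and 118.9 in TIMP3-/- UUO, a difference of -0.82 ± 0.21. The groups did not overlap, but the direction rests on the probe set: a probe set without a suffix for shared sequence gave 0.25 (adjusted p = 0.179). Its other groups read 121.3 to 141.5 then 74.32 to 111.8 in WT, and 141.7 to 150.5 then 87.3 to 136.4 in TIMP2-/-. Col22a1, a collagen of tissue junctions, fell by 0.51 in TIMP2-/- and by 0.68 in TIMP3-/- on the log2 scale. Neither call of Col22a1 held under every alternative. Col19a1, at intensities of 48.15 or below, fell in TIMP3-/- by 0.36 on the log2 scale and did not pass in the other genotypes. Its TIMP3-/- call did not hold under every alternative. Col9a2 did not pass in any genotype.

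Among the 10 other collagens, 6 rose and none fell in WT (median 1.61), 6 rose and 2 fell in TIMP2-/- (1.23), and 7 rose and 2 fell in TIMP3-/- (1.49). Beside these counts, 16.8%, 15.9% and 25.7% of all genes rose and 16.2%, 22.0% and 38.8% fell. Collagen VI forms beaded filaments around cells, and its 3 measured chain genes rose together. Col6a1 read 469.1, 451.8 and 400.8 then 2853, 4705 and 2361 in WT. It read 358.5, 501.6 and 642.4 then 1390, 1577 and 2601 in TIMP2-/-, and 474.4, 625.7 and 601.9 then 7353, 4331 and 2617 in TIMP3-/-. The 9 UUO arrays stood above the 9 sham arrays, and TIMP2-/- UUO 1 and TIMP2-/- UUO 2 were the lowest of them. The differences were 2.85, 1.88 and 2.96 (SE 0.34). Col6a2 rose by 3.00, 1.91 and 2.95 and Col6a3 by 3.05, 2.78 and 3.65.

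Col15a1 and Col18a1 encode the basement membrane collagens that release the fragments restin and endostatin. Col15a1 read 260.6, 260.4 and 270.7 then 776, 1239 and 795.7 in WT. It read 239.9, 203.9 and 266.4 then 921, 910.6 and 946.9 in TIMP2-/-, and 282.3, 378.3 and 293.7 then 1311, 919.6 and 1437 in TIMP3-/-. The operations were well apart in each genotype, with differences of 1.79, 1.98 and 1.93 (SE 0.19). Col18a1 read 1618, 1867 and 1450 then 5523, 4862 and 4910 in WT. It read 1839, 1983 and 2476 then 5530, 5228 and 5273 in TIMP2-/-, and 1671, 1985 and 1884 then 4737, 4553 and 6593 in TIMP3-/-. The UUO arrays of Col18a1 were alike across genotypes, WT UUO 2 included, and the differences were 1.64, 1.36 and 1.50 (SE 0.15).

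Col17a1, the hemidesmosome collagen that anchors epithelial cells, rose by 1.58, 1.10 and 1.48 from sham intensities of 24.2 to 32.1, below the 25th percentile. Col7a1, the anchoring fibril collagen, rose in TIMP3-/- (1.10 ± 0.24, adjusted p = 0.00136) and had 0.51 in WT and -0.11 in TIMP2-/-. The transmembrane collagen gene Col25a1 fell in TIMP2-/- and TIMP3-/- by 0.40 and 0.73 on the log2 scale, and the transmembrane collagen gene Col13a1 fell in TIMP2-/- by 0.36. The TIMP3-/- fall of Col25a1 held under every alternative, and the TIMP2-/- falls of both genes did not. Col26a1 read 61.58, 103.7 and 80.62 in TIMP3-/- sham and 34.97, 41.02 and 66.5 in TIMP3-/- UUO, with 1 UUO array inside the sham range, and fell by 0.81 on the log2 scale (adjusted p = 0.0283). That call did not hold under every alternative. In WT Col26a1 read 39.81 to 65.42 then 36.04 to 83.64 and in TIMP2-/- 77.49 to 83.41 then 80.43 to 105.4, with no pass. Of the 12 collagen genes that fell in at least 1 genotype, 10 had a mean log2 intensity under 8 and 2 under 6. Of all 36 collagen genes, 17 lay under 8 and 6 under 6.

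Genes that make, trim, bind and cut collagen were taken from 4 lists, whose counts read against the shares of all genes that rose (16.8%, 15.9% and 25.7% in WT, TIMP2-/- and TIMP3-/-). Of 14 measured genes for chain modification and folding, 10 rose in WT, 3 in TIMP2-/- and 11 in TIMP3-/-, and none fell. In WT the largest rises were those of Serpinh1 (2.22), the collagen chaperone HSP47, and P3h3 (1.67), of the prolyl 3-hydroxylase family. Of 10 genes for propeptide removal, crosslinking and assembly, 7, 6 and 7 rose and none fell, led in WT by the crosslinking enzyme gene Lox (3.64) and by Sparc (2.75), a collagen-binding secreted protein. Of 5 genes for receptors and uptake, 3 rose in WT, 2 rose and 1 fell in TIMP2-/-, and 2 rose in TIMP3-/-, with Mrc2 (2.46), the collagen uptake receptor, and the integrin gene Itgb1 (0.74) leading in WT. Of 6 genes for collagen cleavage, 3 rose in each genotype, and Mmp2 (3.88) and Mmp14 (3.52), a gelatinase and its membrane-bound activator, led in WT. Tested as a difference in response between genotypes, none of the genes of these 4 lists passed (limma, 0 of 35), so the unequal counts do not show that the genotypes differed.

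All 10 fibroblast and myofibroblast markers rose in WT and TIMP3-/-, and 9 of 10 in TIMP2-/-. Their summed intensity was 6104 to 10314 on the sham arrays. On the UUO arrays it was 30966, 64173 and 30821 in WT, 27452, 28288 and 31421 in TIMP2-/-, and 91235, 75351 and 43161 in TIMP3-/-. WT UUO 2, TIMP3-/- UUO 1 and TIMP3-/- UUO 2, the highest for these markers, were also highest in the mean of the 17 collagen genes that rose in every genotype. Taken as the mean log2 deviation from each gene's mean over the 9 UUO arrays, those 17 genes stood at -0.17, 0.58 and -0.49 on the WT arrays. They stood at -0.58, -0.45 and -0.35 on the TIMP2-/- arrays and at 0.97, 0.50 and -0.02 on the TIMP3-/- arrays. TIMP3-/- UUO 1 was the highest UUO array for 13 of the 17 genes.

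Smooth muscle and adipocyte markers also differed between the same arrays. The summed intensity of 6 smooth muscle markers was 2320, 9649 and 2561 in WT UUO, 1593, 1653 and 2833 in TIMP2-/- UUO, and 19130, 10774 and 4206 in TIMP3-/- UUO, against 1202 to 1981 after sham. That of 5 adipocyte markers was 7644, 15542 and 3068, then 5597, 5190 and 6088, then 17925, 18706 and 2443, against 839 to 2225 after sham. WT UUO 2, TIMP3-/- UUO 1 and TIMP3-/- UUO 2 were thus high for fibroblast, smooth muscle and adipocyte markers and for the mean of the 17 collagen genes. Not every collagen gene followed: Col18a1 read 4862, 4737 and 4553 on them, against 4910 to 6593 on the other UUO arrays. The part of these cells in the collagen values was not tested.

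**Figure D3:**
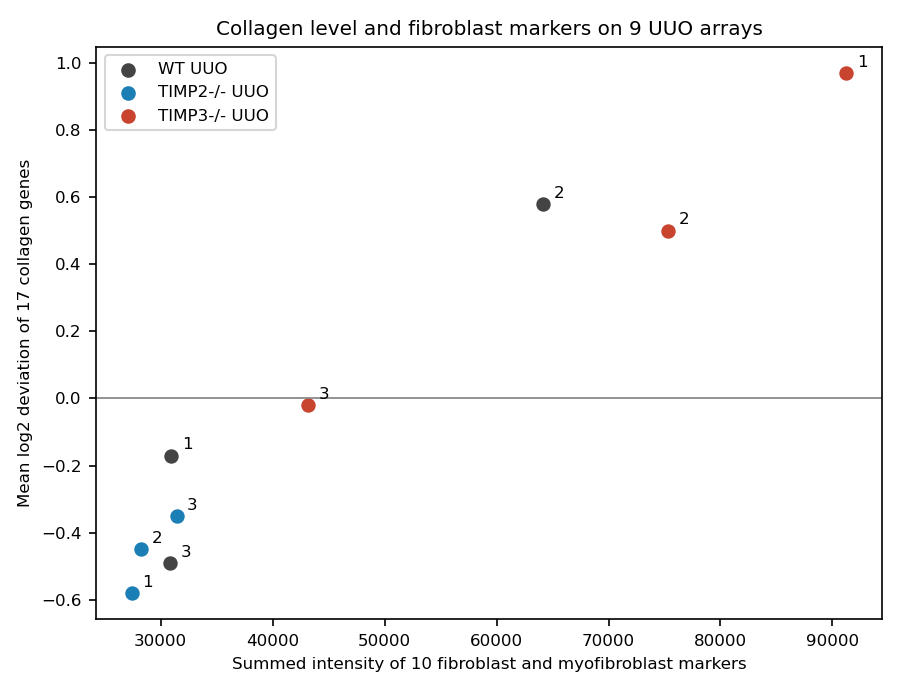
Mean log2 deviation of the 17 collagen genes that rose in every genotype (y axis) against the summed intensity of 10 fibroblast and myofibroblast markers (x axis, linear units) on the 9 UUO arrays, numbered by replicate. TIMP3-/- UUO 1 lies highest on both axes (0.97 and 91235), and the 3 TIMP2-/- arrays lie between -0.58 and -0.35.

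The genotypes after UUO were compared to ask whether loss of either inhibitor alters collagen expression in the obstructed kidney. Against WT, no collagen gene passed in TIMP2-/- (limma, 0 of 36, where 0.0242% of all genes passed), and 3 had an unadjusted p under 0.05, all lower, where 3.32% of all genes did. The median difference was -0.15. Col1a1 had -0.79 with a 95% interval of -1.59 to 0.02, Col3a1 -0.44 (-0.91 to 0.03) and Col4a1 0.00 (-0.26 to 0.26). These intervals leave room for a sizeable difference in Col1a1 and for only a small one in Col4a1.

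TIMP3-/- against WT after UUO also gave no pass (limma, 0 of 36, where 0.395% of all genes passed), and the median was 0.30. An unadjusted p under 0.05 was found for 8 collagen genes, all higher, a share close to the 20.6% of all genes. The smallest adjusted p was 0.133, for Col6a3 (1.00 ± 0.30). This comparison rests on single arrays. Without WT UUO 2, 11 collagen genes were higher in TIMP3-/-, where 4.07% of all genes were, among them Col12a1 (1.38, adjusted p = 0.0106) and Col6a3 (1.41, adjusted p = 0.00668). Without TIMP3-/- UUO 3, 8 were, against 4.03% of all genes. Without the 3 arrays that stood apart, 5 were, against 1.82% of all genes: Col4a1 (0.51), Col4a2 (0.53), Col6a3 (1.33), Col12a1 (1.48) and Col15a1 (0.80). That setting left out WT UUO 2 and TIMP3-/- UUO 2 (mean deviations of the 17 collagen genes 0.58 and 0.50). It kept TIMP3-/- UUO 1 (0.97).

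TIMP2-/- against TIMP3-/- after UUO gave 10 collagen genes lower in TIMP2-/- and none higher, where 8.08% of all genes passed, 1.98% as lower and 6.09% as higher. They were Col1a1, Col3a1, Col5a1, Col6a1, Col6a3, Col7a1, Col8a1, Col12a1, Col14a1 and Col16a1, and the median over the 36 was -0.37. Among the 10, the largest differences were those of Col5a1 (-1.81 ± 0.51, adjusted p = 0.0443), Col8a1 (-1.55 ± 0.41, adjusted p = 0.0366) and Col12a1 (-1.54 ± 0.31, adjusted p = 0.0166). Col11a1 had a larger difference that did not pass (-2.59 ± 0.80, adjusted p = 0.0573). Per array, Col5a1 read 1165, 1425 and 1882 in TIMP2-/- against 10300, 5845 and 2247 in TIMP3-/-, so the groups did not overlap but came close at TIMP3-/- UUO 3. Col8a1 (668.7, 758.6 and 376.8 against 2119, 2408 and 940.6) and Col12a1 (251.3, 319.9 and 332.7 against 1429, 763.4 and 604.3) were also apart, with TIMP3-/- UUO 3 again the lowest of its group. Col4a1 (-0.34), Col15a1 (-0.38) and Col18a1 (0.03) did not pass.

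None of the 10 calls held throughout: with only the arrays of these 2 groups in the fit, or without TIMP2-/- UUO 1, TIMP2-/- UUO 3, TIMP3-/- UUO 1 or TIMP3-/- UUO 2, none passed. In those settings 0.0242% to 0.355% of all genes were lower and 0.105% to 1.85% higher, so passes were also few over all genes. Without TIMP2-/- UUO 2, 1 passed, where 0.621% of all genes were lower and 1.68% higher. Without TIMP3-/- UUO 3, 16 were lower and 3 higher, where 8.96% of all genes were lower and 18.4% higher. Of the 10 fibroblast and myofibroblast markers, 4 were lower in the same comparison, among them Acta2 (-1.11), Dcn (-1.52) and Postn (-3.36), as were the smooth muscle genes Actg2 (-3.96) and Myh11 (-2.47). Postn read 9063, 11480 and 331.2 in TIMP3-/- UUO, the last of these inside its TIMP2-/- UUO range of 284.2 to 347.5. The other genes named did not overlap between the 2 groups. The part of these markers in the collagen differences was not tested.

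**Figure D4:**
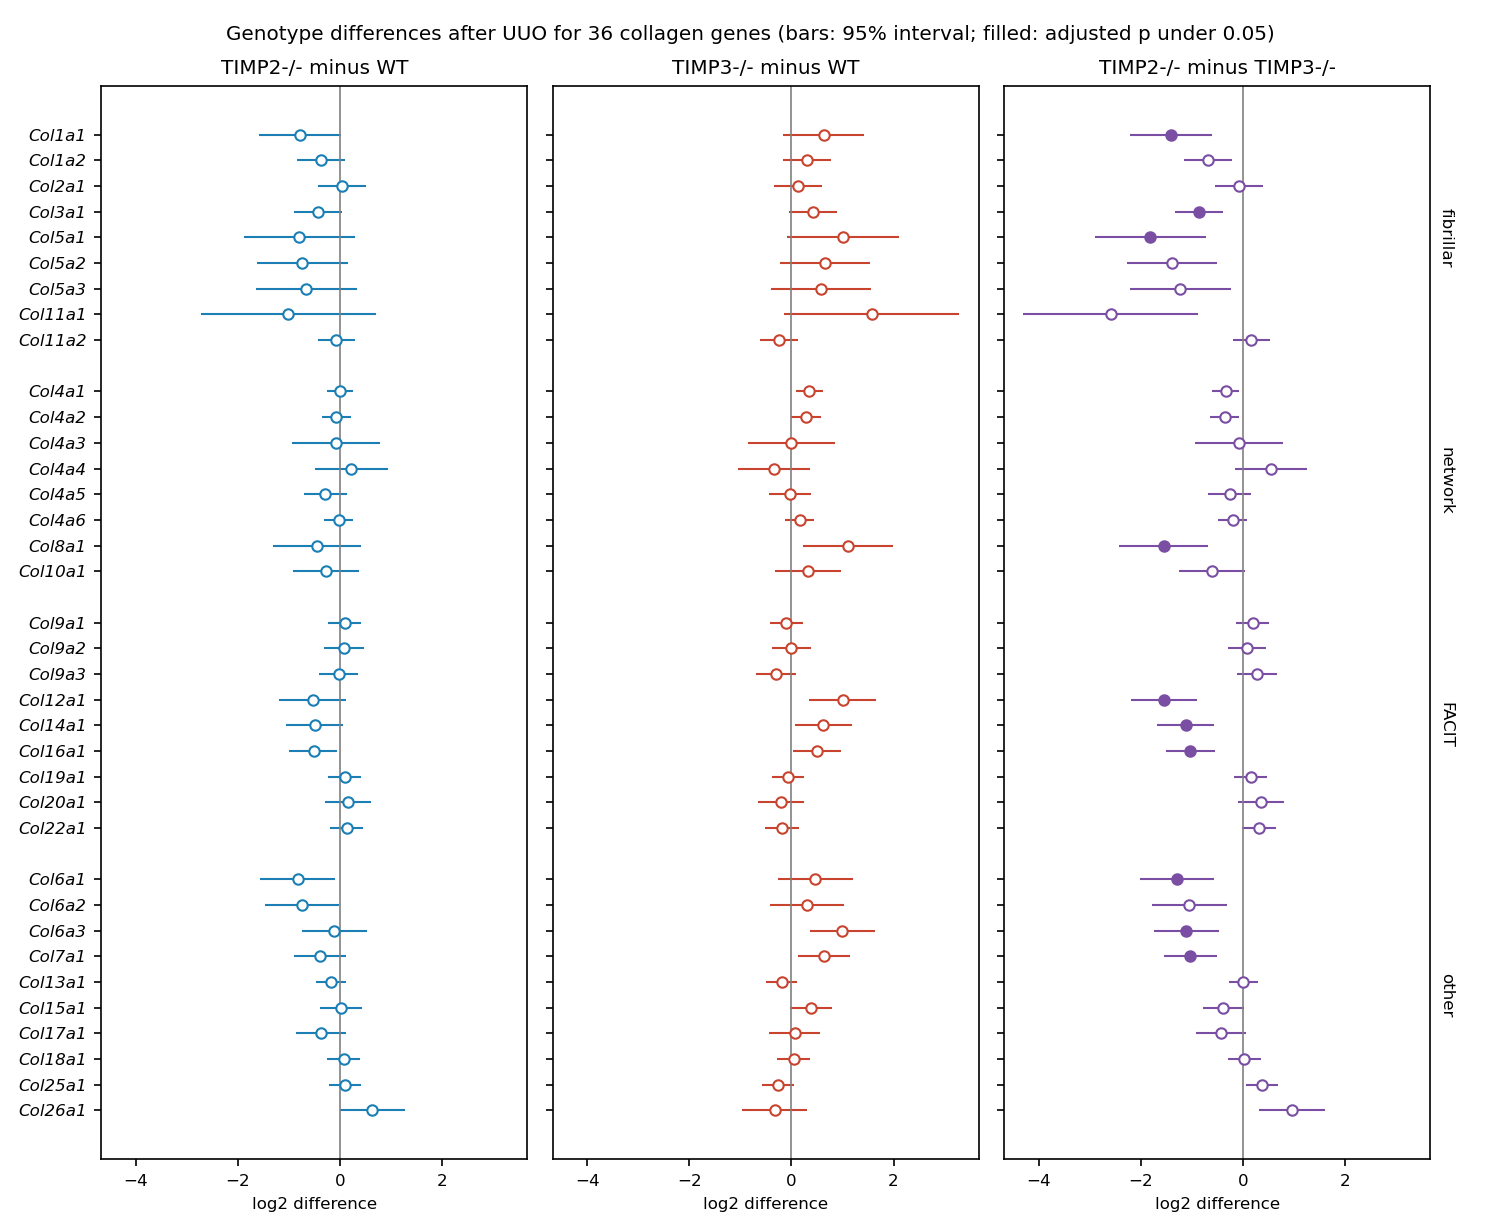
Differences between genotypes after UUO for the 36 collagen genes (x axis, log2): TIMP2-/- minus WT, TIMP3-/- minus WT and TIMP2-/- minus TIMP3-/-, grouped by class. Points are fitted differences, bars 95% intervals and filled points passed at an adjusted p under 0.05; only the last panel has filled points, 10 in number, all left of 0.

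Sham kidneys were compared for differences between genotypes without obstruction. No collagen gene passed between TIMP2-/- and WT, TIMP3-/- and WT, or TIMP2-/- and TIMP3-/- (limma, where 0.00807%, 0.0161% and 0.0403% of all genes passed), and 4, 3 and 2 had an unadjusted p under 0.05, where 27.8%, 10.4% and 3.33% of all genes did. Col3a1 on the TIMP3-/- sham arrays (2020, 1761 and 1504) lay above WT sham (1027, 1254 and 1218) and TIMP2-/- sham (942, 914 and 870.3), with 0.59 against WT (95% interval 0.12 to 1.06, adjusted p = 0.476). TIMP2-/- against TIMP3-/- it had -0.95 (-1.42 to -0.47, adjusted p = 0.503). Col4a3 had -1.04 in TIMP2-/- and -0.93 in TIMP3-/- against WT sham, and WT sham 3 was the highest of all 18 arrays for this gene.

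The UUO response itself, UUO minus sham, was then compared between genotypes. No collagen gene differed in TIMP2-/- minus WT, TIMP3-/- minus WT or TIMP2-/- minus TIMP3-/- (limma, where 0%, 0% and 0.00807% of all genes did), and 2, 2 and 10 had an unadjusted p under 0.05, where 9.56%, 26.7% and 10.7% of all genes did. A gene that passed against sham in some genotypes only, such as Col11a1, Col12a1 or Col4a3, is therefore not shown to respond differently. The response of Col3a1 differed by -0.08 (95% interval -0.75 to 0.58) in TIMP2-/- and by -0.17 (-0.83 to 0.50) in TIMP3-/- relative to WT. For Col5a2 the TIMP3-/- response exceeded that of WT by 1.25 (0.00 to 2.49, adjusted p = 0.187). It passed without TIMP3-/- UUO 3 (1.77), where 3.05% of all genes were higher and 4.68% lower. Without that array Col5a2, Col7a1, Col12a1 and Col16a1 also passed in TIMP2-/- minus TIMP3-/-, each lower in TIMP2-/-. Of all genes, 0.597% were then lower and 1.27% higher.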

How the data were processed

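Kidney RNA of 18 mice, 3 in each of 6 groups, was measured on Affymetrix Mouse430A_2 arrays. The deposited values are linear intensities, 1 for each probe set and array, made with RMA (background correction, quantile normalization and probe summary) per the submitters' processing notes; its version and the step to linear values are not given in the sources used here. Quantile normalization hides a shift of all transcripts in 1 direction. Of 22690 probe sets, 64 controls were left out, and the 20380 with 1 gene symbol in the platform annotation gave 12393 genes, each by its brightest probe set. Levels were not compared between genes, since probes differ in response.

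Intensities were converted to log2 with no pseudocount. One model of 6 group means was fitted to all 18 arrays with limma 3.58.1 in R 4.3.3 (12 residual and 3.35 prior degrees of freedom), and 12 comparisons were drawn from it. P-values were adjusted by Benjamini-Hochberg over all genes within a comparison, and genes passed at an adjusted p under 0.05. SEs and 95% intervals are those of the fit. With 3 arrays against 3, an exact 2-sided permutation test cannot go below 0.1. The scripts were tested on simulated data.

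The collagen genes, their classes, the pathway and marker lists and the motifs were chosen with earlier results of these data known. Every collagen gene is accounted for. Values on each array are given for 9 set chains and for up to 3 of the largest differences in each direction among those that passed in a comparison. Of each pathway list, the 2 measured genes with the largest WT difference are named. The replicate number was not used to pair samples in the main fit. The correlation of deviations of same-numbered arrays had a median of 0.132 over 45 pairs. It ran from -0.613 to 0.673, with 24 over 0.1. Between arrays of different number the median was -0.105. Whether the number marks a shared batch was not tested. Alternatives covered the scale, dim genes, normalization, probe set choice, the arrays in the fit, a replicate block and each array left out.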

Additional observations from a re-analysis of the deposited data

How the results depend on the processing

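Of 86 collagen gene calls over the 12 comparisons, 56 held under every alternative run: 16 of 21 for UUO against sham in WT, 17 of 25 in TIMP2-/-, 23 of 30 in TIMP3-/- and 0 of 10 for TIMP2-/- against TIMP3-/- after UUO. The number of collagen genes that passed with UUO ran from 17 to 22 in WT, 17 to 29 in TIMP2-/- and 25 to 32 in TIMP3-/-. A single call turned its sign: Col20a1 in TIMP3-/- had 0.25 (limma, adjusted p = 0.179) with suffixed probe sets left out. TIMP3-/- against WT after UUO gave 5 collagen genes in place of 0 without WT UUO 2, WT sham 3 and TIMP3-/- UUO 2, and 0 to 11 on leaving out 1 array at a time. TIMP2-/- against TIMP3-/- after UUO gave 0 in place of 10 with only the arrays compared in the fit, and 0 to 19 on leaving out 1 array. The response of TIMP3-/- minus WT gave 0 to 1 and that of TIMP2-/- minus TIMP3-/- 0 to 4 on leaving out 1 array. Without TIMP3-/- UUO 3, 3.05% of all genes were higher and 4.68% lower in the former, and 1.27% and 0.597% in the latter. The causes were not tested.

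With a replicate block, the counts for UUO against sham stayed at 21, 25 and 30. Of all genes, 16.8%, 16.4% and 25.8% then rose and 18.5%, 23.8% and 39.4% fell. The count of TIMP2-/- against TIMP3-/- after UUO was 12, where 3.09% of all genes were lower and 7.71% higher. Fitting a replicate block to the compared arrays by themselves gave 5 for that comparison (4 lower, 1 higher), where 4.23% of all genes were lower and 6.37% higher. This alternative and the separate test of every probe set were chosen after seeing the data. Over all genes, UUO against sham in WT gave 4086 passes, 2441 without the 3 arrays that stood apart and 1531 with the block and the compared arrays by themselves; in TIMP3-/- the last setting gave 4791 in place of 8001. In TIMP2-/- 4692 passed, and 2507 without TIMP2-/- UUO 2. TIMP2-/- against TIMP3-/- after UUO gave 1001, 19 with only the arrays compared, 626 without the 3 arrays, and 26 to 3390 on leaving out 1. TIMP3-/- against WT after UUO gave 49, 1 with only the arrays compared, 84 with the block, 504 without the 3 arrays, 1402 without WT UUO 2 and 1462 without TIMP3-/- UUO 3. Centring each array on its median moved the median of all genes by -0.13, -0.15 and -0.23 in WT, TIMP2-/- and TIMP3-/-. Of the 22 other probe sets of these genes, 18, 13 and 16 had the same call as the brightest in WT, TIMP2-/- and TIMP3-/-. Signal over background limits the dim genes: 6 of the 36 had a mean log2 under 6.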

Other observations

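All 8 proximal tubule markers fell and all 8 macrophage markers rose in each genotype (limma, adjusted p under 0.05). The summed intensity of the proximal tubule markers was 72080 to 84615 on the sham arrays and 11844 to 43197 on the UUO arrays, and that of the macrophage markers 4940 to 9664 and 34257 to 69319. Of 8 endothelial markers 4 rose in WT, 1 fell in TIMP2-/- and 4 rose in TIMP3-/-, and of 5 urothelium markers 2 rose in WT and 2 in TIMP3-/- and none passed in TIMP2-/-. The endothelial markers summed to 5937 to 7955 after sham and 6892 to 10322 after UUO, and the urothelium markers to 838 to 1564 and 858 to 3111, so both ranges overlapped between the operations. The 8 hepatocyte markers summed to 90308 on WT UUO 2 and to 9335 to 45969 on the other arrays. Alb, Ahsg, Apoa1, Apoa2 and Fgb were far highest on WT UUO 2, as with Apoa1 at 8823 against 68.27 to 215.1. Cyp2e1, Ttr and Apob were not highest there, and Cyp2e1 read 22960 to 26810 on the sham arrays.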
